A study of Mus musculus with 6 samples.

Results

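The mouse mitochondrial genome, chromosome M in the mm10 build, carries 37 annotated features, of which 13 are protein genes, 22 are tRNA genes and 2 are rRNA genes. All 37 were found among the 46078 gene features counted in 6 RNA-seq libraries, by taking every feature annotated on chromosome M. They were then grouped by the strand of their annotation. The plus strand holds 28 of them (12 protein, 14 tRNA and 2 rRNA features) and the minus strand holds 9 (mt-Nd6 and 8 tRNA features). The libraries were made from poly-A RNA of cardiomyocytes obtained by heart perfusion. One group had the genotype Acly-KD (Acly_KD, n = 3), a knockdown of Acly, the gene for ATP citrate lyase, in MyH6-Cas9 mice, in which Cas9 is driven by a promoter active in heart muscle cells. The other had the genotype wildtype (control, n = 3). The sources used here do not give the ages of the mice, how the guide was delivered, whether the controls also carried Cas9 or whether each library came from its own animal. The p-values therefore cover library-to-library spread, part or all of which could be technical.

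Both strands of the mitochondrial genome are transcribed into long precursor RNAs from promoters in the control region. The tRNAs that lie between the other genes are cut out of these precursors, which frees the rRNAs and mRNAs, and most of the mRNAs then receive a short poly-A tail. The plus-strand annotation holds nearly all of the protein genes, which encode subunits of respiratory complexes I, III and IV and of ATP synthase. Heart muscle is rich in mitochondria and in these RNAs. In human cells the mature ND5 and CO1 mRNAs run on past their reading frames, opposite to ND6 and to a serine tRNA gene, and ND6 mRNA is known for having little or no poly-A tail.

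The arrangement of the strands is shown by the pair of sequences in which a plus-strand protein feature and a minus-strand feature share bases. Both are written along the plus strand, from the GENCODE M21 transcripts of mm10, with the shared bases in capitals. In the first the last bases of mt-Nd5 are shared with the end of mt-Nd6, and in the second the last bases of mt-Co1 are shared with the end of mt-Ts1.
mt-Nd5 and mt-Nd6 (chrM:13507-13610, plus strand): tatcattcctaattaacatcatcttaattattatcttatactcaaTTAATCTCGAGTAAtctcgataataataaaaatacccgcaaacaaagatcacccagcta
mt-Co1 and mt-Ts1 (chrM:6825-6917, plus strand): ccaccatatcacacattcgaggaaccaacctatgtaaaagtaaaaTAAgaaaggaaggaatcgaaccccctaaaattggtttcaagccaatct
The shared stretch was 14 bases long at mt-Nd5 and 3 bases long at mt-Co1. In all, 20 bases of the plus-strand features had a minus-strand feature opposite to them, and 10 of the 12 plus-strand protein features had none.

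The 4 minus-strand tRNA features with the most reads were those for glutamine (mt-Tq), glutamate (mt-Te), tyrosine (mt-Ty) and proline (mt-Tp). Their gene sequences follow, 5′ to 3′ along the minus strand, with the 3 bases that mt-Tq shares with the plus-strand tRNA feature mt-Ti in capitals.
mt-Tq (chrM:3772-3842, minus strand): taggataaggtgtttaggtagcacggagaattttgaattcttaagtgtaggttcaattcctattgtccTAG
mt-Te (chrM:14071-14139, minus strand): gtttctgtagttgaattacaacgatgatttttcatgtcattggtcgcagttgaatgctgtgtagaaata
mt-Ty (chrM:5260-5326, minus strand): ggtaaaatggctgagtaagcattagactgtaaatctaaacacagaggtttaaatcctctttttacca
mt-Tp (chrM:15356-15422, minus strand): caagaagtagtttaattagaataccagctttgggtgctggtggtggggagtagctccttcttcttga
These features are 71, 69, 67 and 67 bases long. The fragments of such libraries are usually longer than that, so a read counted in one of them can lie mostly outside it.

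Acly itself received 0, 0 and 0 reads in Acly_KD replicates 1 to 3, against 1, 5 and 6 reads in control replicates 1 to 3. That is a thin check of the labels at this depth. Acly has no exon of another gene opposite to it. Such nuclear features held 4.96%, 6.96% and 10.3% of the nuclear reads in Acly_KD and 9.04%, 9.03% and 7.79% in controls. The check therefore also depends on the strand setting of the counting, which is unknown. Reads counted in features numbered 460222 to 799868 in Acly_KD libraries and 271463 to 814765 in controls, and 96.7% to 96.9% of the uniquely aligned reads of a library fell in no feature. Nuclear features with an exon of another gene opposite to them made up 17.98% of those annotated and held 91.9% of the nuclear reads. The kit keeps strand, but which strand setting was used for counting is unknown here. Reads counted in a minus-strand feature can therefore be antisense reads of plus-strand RNA, such as a read-through past the end of mt-Nd5, and likewise reads counted in a plus-strand feature, protein or rRNA, can be of minus-strand RNA. Every level below is that of the annotated feature, and the strand of origin of its reads was not tested. The 10 cardiomyocyte markers summed to 6270 to 19387 CPM (counts scaled to a common library total) in Acly_KD and 14693 to 19546 CPM in controls, where lists of 6 or 7 markers each for endothelial cells, fibroblasts, immune cells and smooth muscle or pericytes summed to 16.4 to 228 CPM in Acly_KD and 11.9 to 133 CPM in controls. The endothelial sum alone was 29.8, 32.6 and 228 CPM in Acly_KD replicates 1 to 3, against 133, 131 and 77.0 CPM in control replicates 1 to 3. Of all these markers, the immune markers Ptprc and Adgre1 had 0 reads in every library. Csf1r gave 63, 31 and 67 of the 63, 31 and 76 immune reads in Acly_KD replicates 1 to 3. In control replicates 1 to 3 Csf1r gave 17, 68 and 79 of 24, 82 and 85. Csf1r, Tagln among the smooth muscle markers and Pdgfra among the fibroblast markers have an exon of another gene opposite to them. The same holds for the cardiomyocyte markers Myh6, Myh7, Atp2a2, Ttn, Myl2 and Myl3. Reads of the markers just named can therefore be of the opposite gene's RNA. In these bulk samples, fewer cells of a type and less RNA per cell cannot be told apart. Tnnt2, Tnni3, Actc1, Ryr2 and the endothelial markers have no exon of another gene opposite to them. Their counts can also vary with the share of reads on the counted strand, and this was not tested.

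Chromosome M features held 31.8%, 38.2% and 34.2% of the feature reads in Acly_KD replicates 1 to 3, against 30.2%, 26.9% and 33.2% in control replicates 1 to 3. The groups overlapped, since control replicate 3 lay above Acly_KD replicate 1. As a share of uniquely aligned reads the values were 0.895%, 1.12% and 1.05% in Acly_KD and 0.900%, 0.817% and 1.02% in controls, again with overlap.

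**Figure D1:**
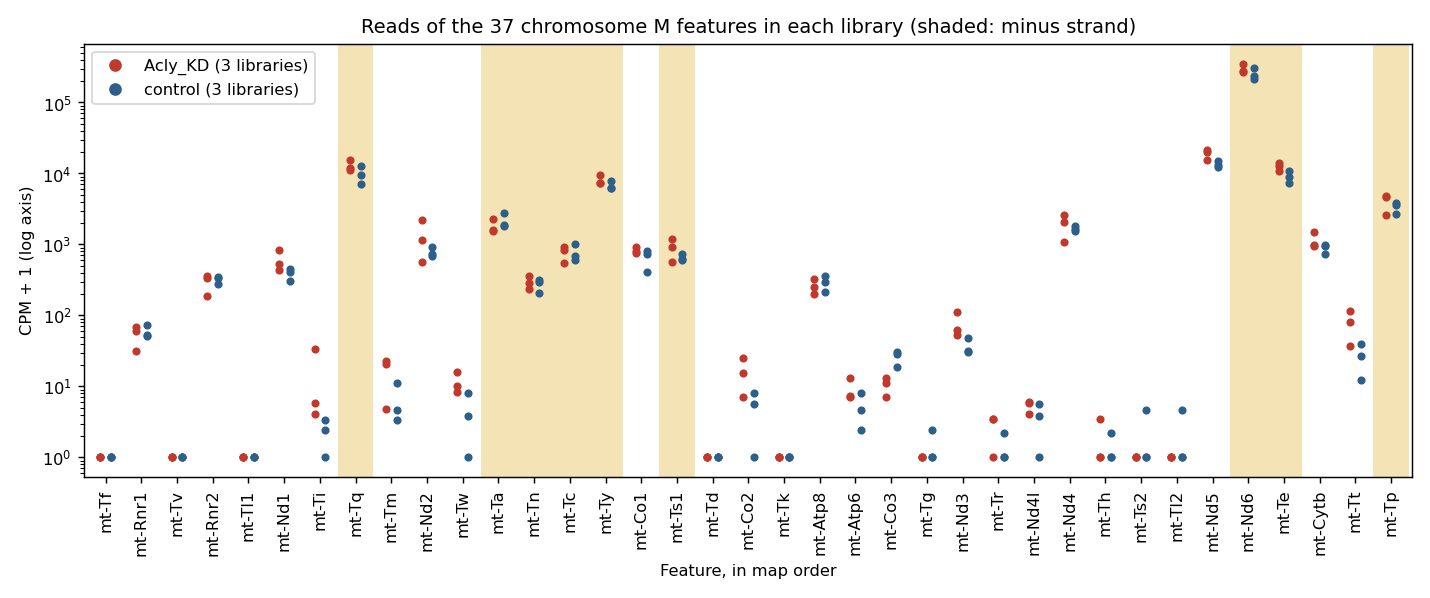
Level of each of the 37 chromosome M features in CPM + 1 on a log axis, in map order, with one point per library, Acly_KD left of control and minus-strand features shaded. mt-Nd6 stands highest, the minus-strand tRNA features all have reads, and most plus-strand tRNA features lie at or near 0.

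Reads were concentrated on the minus strand. The 9 minus-strand features held 94.0%, 93.5% and 91.5% of the chromosome M reads in Acly_KD replicates 1 to 3, against 93.2%, 93.1% and 95.1% in control replicates 1 to 3, although they cover 1068 annotated bases and the 28 plus-strand features cover 14373. mt-Nd6 alone, the only protein gene annotated on that strand and a subunit of complex I, took 82.3%, 82.2% and 80.7% in Acly_KD, against 80.5%, 82.9% and 85.6% in controls. The 8 minus-strand tRNA features took 11.3% ± 0.442 in Acly_KD and 10.8% ± 1.66 in controls (SD, n = 3 each). The plus-strand protein features took 6.91% ± 1.28 in Acly_KD and 6.06% ± 1.12 in controls (SD, n = 3 each). The rRNA and plus-strand tRNA features together were far below, each group under the share of mt-Nd5 alone in every library.

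Strand separated the tRNA features in mean reads per library over the 6 libraries. All 8 on the minus strand had a mean between 164 and 6546 reads. All 14 on the plus strand had a mean between 0 and 34.3 reads, and 5 of them (mt-Tf, mt-Tv, mt-Tl1, mt-Td and mt-Tk) had 0 reads in every library. A count of 0 allows up to 3 reads in a library, which is 3.75 to 7.33 CPM in Acly_KD and 3.55 to 10.9 CPM in controls, for counting error alone. Over all libraries, 303 reads of plus-strand tRNA features lay in the 5 that are within 5 bases of a minus-strand feature, namely mt-Ti, mt-Tm, mt-Tw, mt-Tt and mt-Td, the last with 0 reads. The other 9 held 9 reads in all. A read that reaches across such a border cannot be told apart from a read of the tRNA.

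**Figure D2:**
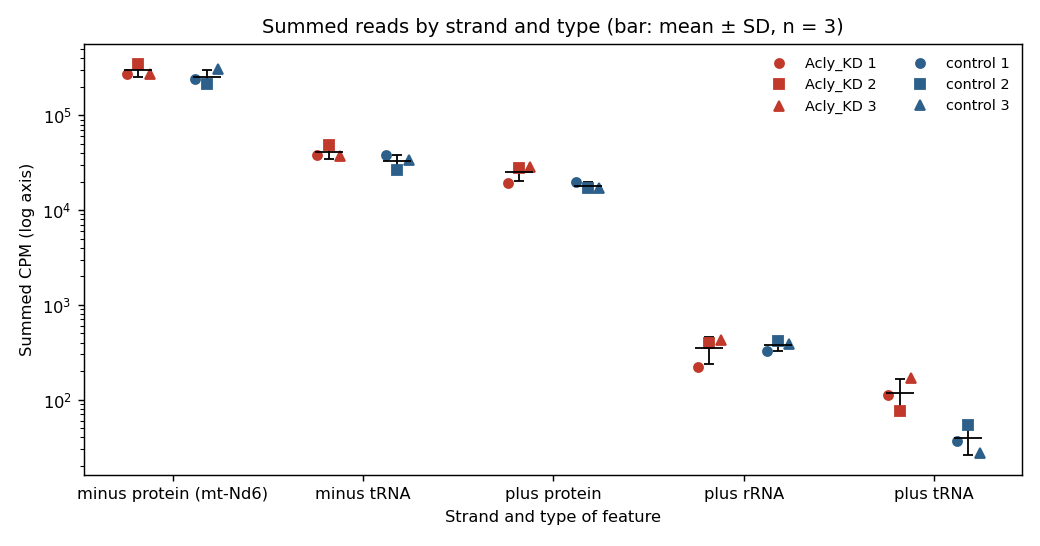
Summed CPM of the 5 strand and type groups on a log axis, with one marker per library, Acly_KD left of control, and bars for the mean ± SD (n = 3). The plus-strand tRNA sums of Acly_KD lie above those of control but rest on 10 to 134 reads per library. mt-Nd6, the minus-strand tRNA sum, the plus-strand protein sum and the rRNA sum overlap between groups.

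mt-Nd6 (chrM:13552-14070, minus strand) read 270398, 352393 and 275850.0 CPM in Acly_KD replicates 1 to 3, against 239911, 214614 and 307664 CPM in control replicates 1 to 3. Control replicate 3 lay above both lower Acly_KD libraries, so the groups overlapped. The log2 fold change was 0.24 (SE 0.15), with a 95% interval of -0.07 to 0.55 (adjusted p = 0.906 in edgeR).

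The tRNA features on the same strand differed widely in level, and with all libraries none passed the test between groups. mt-Te, which adjoins mt-Nd6, read 10696, 14165 and 12853 CPM in Acly_KD, against 8935, 7242 and 11003 CPM in controls. Only control replicate 3 reached into the Acly_KD range, and the log2 fold change of mt-Te was 0.47 (95% interval 0.14 to 0.81, adjusted p = 0.579 in edgeR). mt-Tq, which lies between mt-Nd1 and mt-Nd2, read 11756, 15679 and 11154 CPM in Acly_KD, against 12657, 7169 and 9596 CPM in controls. Its groups overlapped through control replicate 1, with a log2 fold change of 0.39 (95% interval -0.06 to 0.84). mt-Tp, which lies beyond mt-Cytb, read 4679, 4757 and 2615 CPM in Acly_KD, against 3568, 2700.0 and 3835 CPM in controls. There Acly_KD replicate 3 was the lowest of all 6 libraries, and the log2 fold change was 0.25 (95% interval -0.26 to 0.77).

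A run of 4 minus-strand tRNA features, mt-Ta, mt-Tn, mt-Tc and mt-Ty (alanine, asparagine, cysteine and tyrosine), lies between mt-Nd2 and mt-Co1. The outer pair was higher than the inner pair in all 6 libraries. mt-Ty, 1 base from the start of mt-Co1, read 7271, 9395 and 7378 CPM in Acly_KD, against 7803, 6141 and 6299.7 CPM in controls, and mt-Ta at the other end read 1597, 2257 and 1569 CPM in Acly_KD, against 2782, 1827 and 1861 CPM in controls. Between them mt-Tc read 932, 828 and 546 CPM in Acly_KD, against 1023, 607 and 682 CPM in controls. The lowest, mt-Tn, read 281, 359 and 237 CPM in Acly_KD, against 317, 204 and 293 CPM in controls. All 4 overlapped between groups, with log2 fold changes of 0.25 for mt-Ty, -0.25 for mt-Ta, 0.01 for mt-Tc and 0.12 for mt-Tn, and 95% intervals that included 0. The deposited tallies set 19222 to 65961 reads per library apart as ambiguous between features, and how many of them touched these adjoining features was not tested.

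mt-Ts1, the serine tRNA feature opposite to the end of mt-Co1, read 1176, 918 and 569 CPM in Acly_KD, against 739, 626 and 613 CPM in controls. Acly_KD replicate 3 was the lowest of the 6 libraries and the other Acly_KD libraries the highest. The log2 fold change was 0.43 (95% interval -0.07 to 0.93, adjusted p = 0.873 in edgeR). Without Acly_KD replicate 3 it was 0.74 and passed the test (adjusted p = 0.0234 in edgeR). That fit called 23 of 2998 features higher and 46 lower. With Acly_KD replicate 3 as the only Acly_KD library the log2 fold change of mt-Ts1 was -0.21.

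On the plus strand, mt-Nd5 (chrM:11742-13565), a core subunit of complex I, held 72.7% of the reads over the 6 libraries. It read 15456, 21542 and 20138 CPM in Acly_KD, against 14874, 12328 and 13057 CPM in controls. All 3 Acly_KD libraries lay above all 3 controls, with Acly_KD replicate 1 close to control replicate 1. The means were 19045 ± 3187 CPM in Acly_KD and 13419 ± 1311 CPM in controls (SD, n = 3 each), and the log2 fold change was 0.51 (SE 0.14, 95% interval 0.21 to 0.80). It did not pass over all features (adjusted p = 0.457 in edgeR), and it did with limma-voom and quality weights (0.58, adjusted p = 0.0431). Over the other settings its adjusted p ran from 0.0562 to 1.00.

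The other complex I features of the plus strand had wider spreads. mt-Nd1 read 442, 530.0 and 837 CPM in Acly_KD, against 408, 454 and 308 CPM in controls, with a log2 fold change of 0.64 (95% interval 0.12 to 1.15, adjusted p = 0.659 in edgeR). mt-Nd2 read 568, 1140.5 and 2209.9 CPM in Acly_KD, against 739, 908 and 683 CPM in controls, with a log2 fold change of 0.75 (95% interval -0.55 to 2.06). Without Acly_KD replicate 3 the value of mt-Nd2 was 0.17, and without Acly_KD replicate 1 it was 1.11 (adjusted p = 0.0851 in edgeR). In both features, Acly_KD replicate 3 was the highest library, and for mt-Nd2 Acly_KD replicate 1 was the lowest. mt-Nd4 showed the same order, with 1072, 2042 and 2629 CPM in Acly_KD, against 1839, 1569 and 1623 CPM in controls, and a log2 fold change of 0.19 (95% interval -0.50 to 0.89), which was -0.065 without Acly_KD replicate 3. mt-Nd3 rested on 34, 45 and 49 reads in Acly_KD, against 8, 26 and 33 reads in controls. Its levels of 52.2, 109.9 and 61.2 CPM in Acly_KD lay above those of 29.1, 30.8 and 47.5 CPM in controls, with a log2 fold change of 1.00 (95% interval 0.20 to 1.79, adjusted p = 0.659 in edgeR).

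Features of complexes III and IV and of ATP synthase were measured through fewer members. mt-Cytb, the mitochondrial subunit of complex III, read 943, 996 and 1519 CPM in Acly_KD, against 939, 975 and 729 CPM in controls, with a log2 fold change of 0.39 (95% interval -0.01 to 0.80). mt-Co1, the catalytic subunit of complex IV, read 748, 911 and 811 CPM in Acly_KD, against 808, 723 and 407 CPM in controls, with a log2 fold change of 0.36 (95% interval -0.12 to 0.83). Both overlapped between groups. mt-Atp8, an ATP synthase subunit, read 199.6, 249 and 321 CPM in Acly_KD, against 357, 298 and 209.9 CPM in controls, and its log2 fold change was -0.14 (95% interval -0.62 to 0.33). mt-Co3 of complex IV had 4, 5 and 8 reads in Acly_KD, against 8, 15 and 19 reads in controls. It passed the filter on low counts through the control libraries alone, so that its value below 0 was fixed by that filter. The log2 fold change was -1.36 (SE 0.55, adjusted p = 0.687 in edgeR). mt-Co2, mt-Atp6 and mt-Nd4l had a mean of 2.33 to 6.33 reads and were not tested.

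Few reads were counted in the rRNA features. mt-Rnr2, the large rRNA, read 189, 339 and 361 CPM in Acly_KD, against 273, 343 and 332 CPM in controls, and mt-Rnr1, the small rRNA, read 30.7, 58.6 and 67.5 CPM in Acly_KD, against 51.0, 72.2 and 51.8 CPM in controls. Acly_KD replicate 1 was the lowest library for both, and the log2 fold changes were -0.11 (95% interval -0.58 to 0.37) and -0.18 (95% interval -0.93 to 0.57). Of the plus-strand tRNA features only mt-Tt (threonine), which adjoins mt-Tp, was tested. It had 52, 15 and 91 reads in Acly_KD, against 7, 33 and 8 reads in controls, and Acly_KD replicate 2 and control replicate 2 overlapped in CPM. The log2 fold change of mt-Tt was 1.60 (SE 0.48, adjusted p = 0.549 in edgeR).

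In all, 21 of the 37 features passed the filter on low counts, 9 on the minus strand and 12 on the plus strand. Of these, 0 were called higher and 0 lower by edgeR at an adjusted p of 0.05, where 0% of the 2952 features tested were called in either direction. Over all features 180 had an unadjusted p under 0.05 in edgeR, DESeq2 called 0, and the quality-weighted limma-voom fit made 1 call higher, mt-Nd5, and 2 lower. Without Acly_KD replicate 3, edgeR called 23 of 2998 features higher and 46 lower. mt-Ts1 was the 1 called among the 22 chromosome M features tested there. In that fit 536 features had an unadjusted p under 0.05, against 180 with all libraries. With Acly_KD replicate 3 as the only Acly_KD library, chosen after it was seen to stand apart and assumed to vary like the others, edgeR called 10 of 4006 features higher and 26 lower. Of the 24 chromosome M features tested there, 5 were called higher, namely mt-Cytb, mt-Nd1, mt-Nd2, mt-Tt and mt-Ti. mt-Ti was tested there only through its 26 reads in that library, so its direction was fixed by the filter. An unadjusted p under 0.05 in edgeR was met by 5 of the 21 with higher values in Acly_KD, beside 2.57% of all features tested, and by 1 with lower values, beside 3.52%. Acly_KD lay above control without overlap for 2 of the 21 (mt-Nd3 and mt-Nd5), beside 5.83% of all features tested. It lay below control without overlap for 1 (mt-Co3), beside 5.56%. mt-Co3 was also the 1 with a lower value and an unadjusted p under 0.05. Its direction was fixed by the filter on low counts, so neither lower count can be set against its share. The log2 fold change was above 0 for 16 of the 21, beside 45.6% of all features tested, with a median of 0.25 against -0.04 over all features. By strand it was above 0 for 8 of 9 on the minus strand and 8 of 12 on the plus strand, with medians of 0.25 and 0.38. Features of 1 strand share precursors and can share reads, so they are not separate observations.

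**Figure D3:**
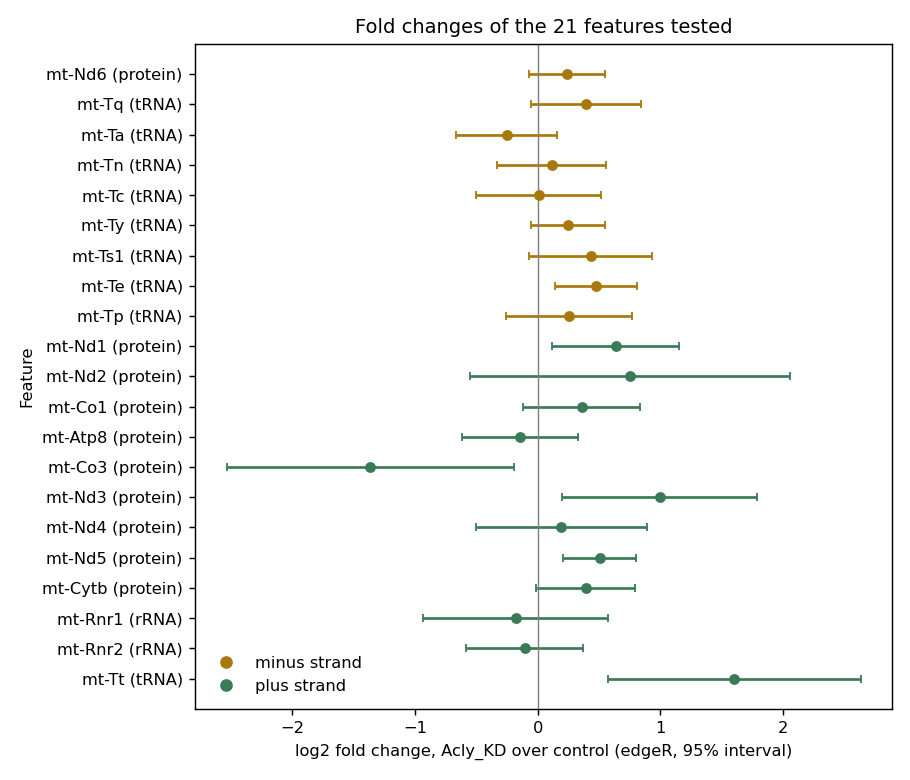
Log2 fold change (Acly_KD over control) of the 21 chromosome M features tested, with 95% intervals from edgeR, minus strand above and plus strand below. The interval lies above 0 for mt-Te, mt-Nd1, mt-Nd3, mt-Nd5 and mt-Tt and below 0 for mt-Co3, whose direction was fixed by the filter on low counts. No feature passed the adjustment over all features.

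Summed by strand and type, the plus-strand protein features read 19501, 27565 and 28571 CPM in Acly_KD, against 20026, 17319.5 and 17103 CPM in controls. Acly_KD replicate 1 lay below control replicate 1, and the difference of the mean log2 values was 0.46, or 0.25 for the summed minus-strand features. The difference was 1.58 for the plus-strand tRNA sum, which did not overlap between groups. This sum read 112, 75.7 and 167 CPM in Acly_KD, against 36.4, 53.2 and 27.3 CPM in controls. It rested on 73, 31 and 134 reads in Acly_KD, against 10, 45 and 19 reads in controls. mt-Tt alone, whose groups overlapped, gave 52, 15 and 91 of these in Acly_KD and 7, 33 and 8 in controls. mt-Ti gave 26 of those in Acly_KD replicate 3. For the rRNA sum the difference was -0.15. These sums were described and not tested.

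The balance of the strands varied as much within the groups as between them. Plus-strand reads per 100 minus-strand reads numbered 6.42, 6.997 and 9.33 in Acly_KD replicates 1 to 3, against 7.34, 7.38 and 5.12 in control replicates 1 to 3. The highest value was that of Acly_KD replicate 3 and the lowest that of control replicate 3. The mean log2 ratio was -3.74 ± 0.28 in Acly_KD and -3.94 ± 0.30 in controls (SD, n = 3 each), a difference of 0.20 that was smaller than either spread. It was 0.024 without control replicate 3, 0.040 without Acly_KD replicate 3 and 0.059 without mt-Nd5. Leaving out mt-Nd5 was an alternative chosen after seeing the data. Nuclear features with no exon opposite to them took 4.96%, 6.96% and 10.3% of the nuclear reads in Acly_KD and 9.04%, 9.03% and 7.79% in controls. The Acly_KD libraries stood in the same order in both measures, and control replicate 3 was the lowest control in both. The summed cardiomyocyte markers had that order too, at 6270, 11036 and 19387 CPM in Acly_KD and 19546, 18712 and 14693 CPM in controls, and so did the endothelial sums given above. The part of any of these in the chromosome M values was not tested.

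**Figure D4:**
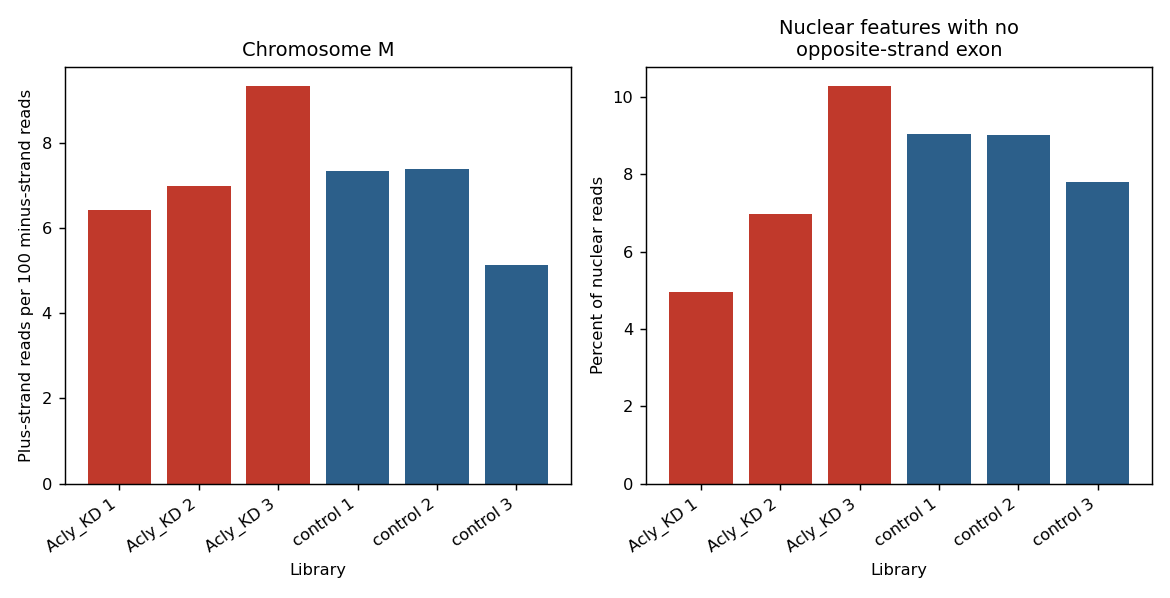
Left, plus-strand reads per 100 minus-strand reads of chromosome M in each library. Right, share of nuclear reads in features with no opposite-strand exon, with Acly_KD libraries left of controls in both. Acly_KD replicate 3 is the highest in both panels, at 9.33 reads and 10.3%.

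Neighbouring features of opposite strand were also set against each other within each library. mt-Nd6 had 17.5, 16.4 and 13.7 reads per mt-Nd5 read in Acly_KD, against 16.1, 17.4 and 23.6 in controls. mt-Tp had 4.96, 4.77 and 1.72 reads per mt-Cytb read in Acly_KD, against 3.80, 2.77 and 5.26 in controls, and mt-Ts1 had 1.57, 1.01 and 0.701 reads per mt-Co1 read in Acly_KD, against 0.914, 0.866 and 1.51 in controls. In all 3 pairs Acly_KD replicate 3 had the lowest ratio of all libraries. Two-sided exact permutation tests of the log2 ratios gave p = 0.5 for mt-Nd5 to mt-Nd6, 0.8 for mt-Cytb to mt-Tp and 1 for mt-Co1 to mt-Ts1, each 1 after adjustment over the 3 ratios, where 3 libraries against 3 cannot go below 0.1.

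Per kb of annotated length, the plus-strand protein features spanned a wide range of levels. mt-Nd5 was highest, at 10441 ± 1747 CPM per kb in Acly_KD and 7357 ± 719 CPM per kb in controls (SD, n = 3 each). In Acly_KD mt-Nd4, mt-Nd2, mt-Atp8 and mt-Cytb came next, at means of 1007 to 1389 CPM per kb, then mt-Nd1 at 630 and mt-Co1 at 533, mt-Nd3 at 214, and mt-Co2, mt-Nd4l, mt-Co3 and mt-Atp6 at 12.04 to 21.7 CPM per kb. Acly_KD libraries overlapped between every pair of neighbours in this order from mt-Nd4 to mt-Co1 and from mt-Co2 to mt-Atp6. In controls the order was mt-Atp8, mt-Nd4, mt-Cytb and mt-Nd2, at 748 to 1413 CPM per kb, then mt-Co1 at 418 and mt-Nd1 at 407. Control libraries overlapped between mt-Atp8 and mt-Nd4, between mt-Cytb and mt-Nd2, and between mt-Co1 and mt-Nd1. Below them in controls came mt-Nd3 at 103, mt-Co3 at 31.5, and mt-Nd4l, mt-Atp6 and mt-Co2 at 5.81 to 8.54 CPM per kb, of which the last 3 overlapped.

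Some features have near copies in the nuclear genome, which the choice of members did not use. mt-Co2, mt-Atp6, mt-Co3, mt-Nd3 and mt-Nd4l each matched an annotated pseudogene on the minus strand of chromosome 1 over all but their last 1 to 3 bases. The matches were identical for mt-Co2 (Gm28661, 681 bases), mt-Atp6 (Gm10925, 678 bases), mt-Co3 (Gm28437, 783 bases) and mt-Nd4l (Gm10222, 294 bases). For mt-Nd3 and Gm28438 there was 1 difference in 345 bases, T3C, counted from 1 at the start of mt-Nd3. The first bases of both are given with that position in capitals, as the only base by which a read of this stretch of mt-Nd3 differs from its copy.
mt-Nd3 (chromosome M): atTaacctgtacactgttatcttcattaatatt
Gm28438 (chromosome 1): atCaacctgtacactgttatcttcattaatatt
Parts of mt-Co1 (483 bases, 99.8% identity, Gm29216) and mt-Nd4 (876 bases, identical, Gm28439) had copies there too. More distant copies elsewhere matched 3 features of higher level and 1 of low level. The former were all 1545 bases of mt-Co1 (Gm13340, 97.6% identity), 510 bases of mt-Nd2 (Gm13339, 96.7%) and 954 bases of mt-Nd5 (Gm4076, 95.2%). The latter was mt-Co2, matched over all 684 bases (Gm13341, 95.9%). The 7 pseudogenes lie in 1 block, chr1:24611535-24616197, in the same order as on chromosome M from base 6390 to base 11042. The deposited tallies set apart 1995538 to 5661008 reads per library as not uniquely aligned, and how many of them came from this span was not tested.

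The 6 plus-strand protein features wholly inside this span averaged 12.04 to 1258 CPM per kb in Acly_KD and 5.81 to 1413 CPM per kb in controls. The 4 wholly outside (mt-Nd1, mt-Nd2, mt-Nd5 and mt-Cytb) averaged 630 to 10441 CPM per kb in Acly_KD and 407 to 7357 CPM per kb in controls. mt-Atp8 stood highest inside the span, and just its last 43 bases, which it shares with mt-Atp6, matched an annotated copy. Next came mt-Nd3, matched over nearly its whole length, at 214 CPM per kb in Acly_KD and 103 CPM per kb in controls. It lay above mt-Co2, mt-Atp6, mt-Co3 and mt-Nd4l. Bases of the block that lie between the annotated pseudogenes were not analysed here. The copies themselves had a mean of 0.333 to 2.67 reads, and mt-Ts1, which lies in the span, had a mean of 459 reads.

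**Figure D5:**
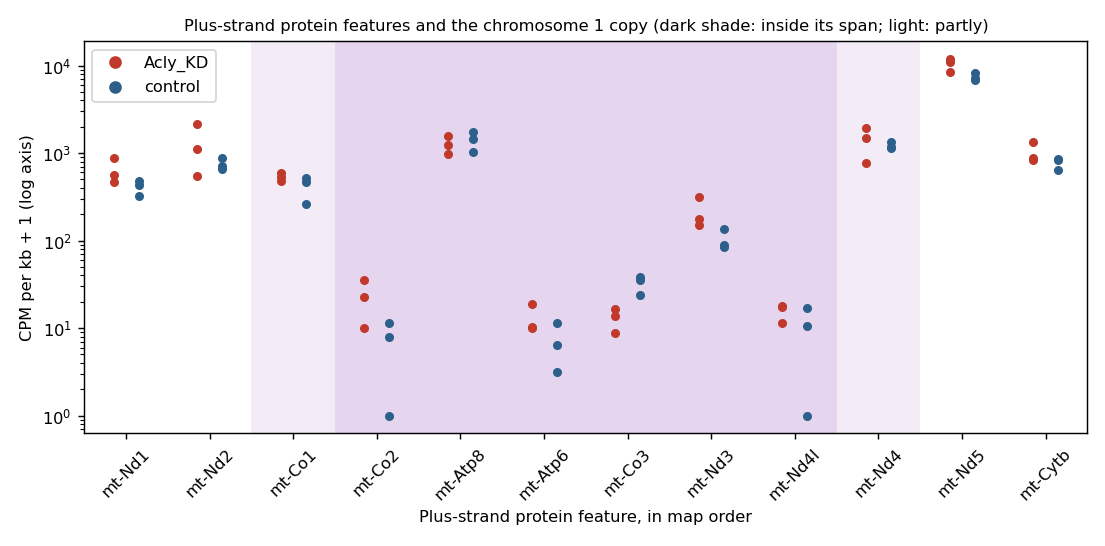
Level per kb of the 12 plus-strand protein features in map order on a log axis, with one point per library, Acly_KD left of control. Dark shading marks features inside the span copied on chromosome 1 and light shading those partly in it. mt-Co2, mt-Atp6, mt-Co3 and mt-Nd4l lie at the bottom, mt-Nd3 lies above them and mt-Atp8 stands with the features outside.

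Nuclear genes that act on the mitochondrial genome were measured only thinly. Of 45 genes for mitochondrial transcription, RNA processing, RNA decay and DNA replication, 7 passed the filter on low counts, and 0 were called higher and 0 lower by edgeR. The next 3 genes were picked for their roles or level after their values were seen. The RNA polymerase gene Polrmt had 0 to 1 reads in Acly_KD and 0 to 2 in controls, and Tfam, which packages mitochondrial DNA and aids transcription, had 0 to 3 reads in Acly_KD and 0 to 8 in controls. Slirp, a stabiliser of mitochondrial mRNAs and the most counted of the list, had a log2 fold change of -0.03 (95% interval -0.36 to 0.29). The 4 with the smallest p were Mterf4, which acts in mitochondrial ribosome assembly (log2 fold change -0.32, 95% interval -0.87 to 0.22), the ribosomal RNA-binding protein gene Ptcd3 (-0.79, -2.89 to 1.30), Prorp, the nuclease subunit that cuts tRNA 5′ ends (0.11, -0.68 to 0.91), and Fastk, a mitochondrial isoform of which is needed for ND6 mRNA (0.06, -0.35 to 0.46), all with adjusted p of 0.938 to 0.976 in edgeR. Of the 7 tested only Ptcd3 has no exon of another gene opposite to it, so reads of the others can be of the opposite gene's RNA.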

How the data were processed

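Per the submitters' processing notes, FastQC, TopHat2, SAMtools, HTSeq and DESeq2 were used with the mm10 build; their versions and the strand setting are not stated there. The deposited values are raw read counts per gene, whole numbers made by the authors. Rows that name no gene held 97.4% to 97.7% of a library's entries and stayed out of library sizes and tests. Groups were taken from the titles. Features were matched to GENCODE M21 (mm10), which held 45229 of 46078. All features entered 1 fit in edgeR 4.0.16 under R 4.3.3 (quasi-likelihood test, robust, TMM, low counts filtered by filterByExpr at 10, Benjamini-Hochberg over 2952 features, threshold 0.05). CPM uses TMM-scaled library sizes, except in the marker sums, which use all feature reads. Intervals at 95% use the t distribution. Nuclear copies were sought with blastn 2.17.0 among annotated transcripts, keeping matches of at least 100 bases and 95% identity. Ratios used 1 read as pseudocount. Members with a mean of at least 10 reads are named with their values, with mt-Co3 added because it was tested. Members, lists and tests were chosen with earlier results of these data known. The libraries of a group differed by more than sampling noise (chi-square per degree of freedom 4.37 to 13.4). Alternatives were DESeq2 1.42.0, limma-voom 3.58.1, other scalings, other filters, a replicate block and each library left out. Depth per library was 271463 to 814765 feature reads; floors cover counting error only.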

Additional observations from a re-analysis of the deposited data

How the results depend on the processing

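The log2 fold changes of mt-Nd1, mt-Nd2, mt-Nd5, mt-Nd6, mt-Te, mt-Tq, mt-Ty, mt-Co1 and mt-Cytb stayed above 0 under every alternative run, and those of mt-Nd3 and mt-Tt under every one but the minimum count of 50, where they were not tested. The cause of the changes below was not tested. mt-Tc, near 0 in the result reported, was -0.056 with library totals, -0.045 with a minimum count of 50, -0.11 with uniquely aligned reads as library size and -0.00329 with the replicate block. Uniquely aligned reads as library size moved the median of all features to -0.14, against -0.04 in the result reported. The limma-voom fit with quality weights called 1 feature higher, which was the 1 from chromosome M, and 2 lower, and edgeR without a filter called 2 higher and 1 lower. Replicate numbers gave no sign of pairing the libraries: the correlations of same-numbered deviations were -0.06, -0.02 and -0.18. No Acly_KD library correlated best with its own number. With 3 libraries per group, these values cannot show whether same-numbered libraries were processed together. The fit with the replicate block called 0 features, with an adjusted p of 0.806 for mt-Nd5 in edgeR. With Acly_KD replicates 1 and 2 left out, which like the library size from uniquely aligned reads was an alternative chosen after seeing the data, edgeR called 10 features higher and 26 lower, 5 of the higher ones from chromosome M. The log2 fold changes then were 0.17 for mt-Rnr1, 0.17 for mt-Rnr2, -0.17 for mt-Tn, -0.48 for mt-Tc, -0.21 for mt-Ts1, 0.18 for mt-Atp8 and -0.37 for mt-Tp, and the differences were 2.16 for the plus-strand tRNA sum, 0.52 for the plus to minus ratio, 0.60 for mt-Co1 to mt-Ts1 and 1.14 for mt-Cytb to mt-Tp (log2). The difference in the share of chromosome M was 0.108 points of uniquely aligned reads, a smaller share by construction. Leaving out each library in turn gave 0 to 23 features higher, 0 to 46 lower, and 0 to 1 from chromosome M higher, with the highest counts without Acly_KD replicate 3. In those fits the log2 fold change ran from -0.41 to 0.10 for mt-Rnr1, -0.25 to 0.14 for mt-Rnr2, -0.42 to 0.016 for mt-Ta, -0.033 to 0.31 for mt-Tn, -0.15 to 0.31 for mt-Tc, -0.34 to 0.056 for mt-Atp8 and -0.065 to 0.49 for mt-Nd4, and the ratio difference from 0.024 (without control replicate 3) to 0.31 for plus to minus, from -0.25 to 0.33 for mt-Co1 to mt-Ts1 and from -0.35 to 0.41 for mt-Cytb to mt-Tp. At this depth 16 of the 37 features were too low to test.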
